A study of Rattus norvegicus with 6 samples.

Results

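Members of the Gimap family had lower mean expression in PEC-enriched than in PEC-deprived glomerular isolates of the rat. The family comprises small GTPases of immunity-associated proteins, and its members were taken as all probesets annotated with exactly 1 gene symbol that starts with Gimap. This gave 7 genes with 1 probeset each, among 14506 genes with such a probeset and 29215 probesets in all, and the same 7 are the Gimap genes of the RefSeq annotation. Total RNA of glomeruli was hybridized to 6 whole-transcript arrays, 1 per isolate. The 3 PEC-enriched isolates, from the 90 µm sieve, held mostly capsulated glomeruli with their parietal epithelial cells (PECs, the lining of Bowman's capsule), and the 3 PEC-deprived isolates, from the 75 µm sieve, held mostly decapsulated glomeruli. All came from male Sprague-Dawley rats that received no treatment, without cell culture. Each fraction is a mixture, since the PEC-enriched preparations also held a sizeable and varying share of decapsulated glomeruli, capsulated glomeruli were counted in the other fraction too, and both could hold tubule fragments.

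Gimap proteins carry a GTP-binding domain of the AIG1 type, and many sit on membranes of intracellular compartments by a hydrophobic tail. They are best known from lymphocytes, where they act on the survival of resting T and B cells, and several are also expressed in vascular endothelium. In the rat the family has a classical phenotype, since a frameshift in Gimap5 causes the T lymphopenia of the diabetes-prone BB strain. The genes lie side by side on rat chromosome 4, in the order Gimap8, Gimap9, Gimap4, Gimap6, Gimap7, Gimap1 and Gimap5, with 0 other protein-coding genes between them. Gimap6 is on the minus strand and the other members are on the plus strand.

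The regions before the annotated starts of 3 members are shown, because Gimap9 and Gimap6 had the largest differences between the isolates and Gimap7 the smallest. They are the 250 bases upstream of the start in RefSeq (build GRCr8), 5′ to 3′ on the strand of the gene. Capitals mark GGAAGT, the core read by ETS family factors, or its reverse complement ACTTCC.
Gimap9 (chr4:78957201-78957450, plus strand): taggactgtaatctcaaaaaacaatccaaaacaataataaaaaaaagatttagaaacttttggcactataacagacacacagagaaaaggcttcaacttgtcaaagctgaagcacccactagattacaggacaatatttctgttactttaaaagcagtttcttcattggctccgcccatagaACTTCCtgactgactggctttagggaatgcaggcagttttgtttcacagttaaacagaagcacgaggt
Gimap6 (chr4:78990007-78990256, minus strand): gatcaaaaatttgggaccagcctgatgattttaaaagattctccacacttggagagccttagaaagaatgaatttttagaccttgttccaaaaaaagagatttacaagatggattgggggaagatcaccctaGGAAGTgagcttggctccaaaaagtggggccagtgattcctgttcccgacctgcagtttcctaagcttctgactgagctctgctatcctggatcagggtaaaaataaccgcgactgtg
Gimap7 (chr4:79001166-79001415, plus strand): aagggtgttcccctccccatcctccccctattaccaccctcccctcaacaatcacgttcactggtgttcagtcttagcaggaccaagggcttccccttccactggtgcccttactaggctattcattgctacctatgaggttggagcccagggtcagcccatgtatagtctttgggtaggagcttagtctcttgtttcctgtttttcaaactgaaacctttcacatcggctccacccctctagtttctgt
Gimap9 holds the letters once and Gimap6 once in the printed stretch, and Gimap7 not at all. Each RefSeq promoter, 250 bases before to 50 after the start, was searched on both strands for 3 motifs. GGAAGT was found in 5 of 7 Gimap promoters (Gimap1, Gimap4, Gimap5, Gimap6 and Gimap9), against 22.8% of 27457 promoters of all genes. TGTGGT, read by RUNX factors, was found in 2 of 7 (Gimap1 and Gimap8), against 16.9% of all promoters. TATAAA was found in 0 of 7, against 14.3%. Among the members not printed, Gimap8 lacked GGAAGT at a log2 fold change (PEC-enriched minus PEC-deprived) of -0.60. Gimap4 (-0.52), Gimap5 (-0.42) and Gimap1 (-0.33) held it. Whether the motif goes with the size of the differences was not tested. These matches are letters in a window, and binding was not measured.

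In PEC-enriched isolates all 7 members had a lower mean than in PEC-deprived isolates, with a median log2 fold change of -0.52 (PEC-enriched minus PEC-deprived here and throughout). Over all genes the median was -0.02, and 55.2% of genes had a lower mean. The 3 PEC-enriched arrays lay below all 3 PEC-deprived arrays in 6 of 7 members, against 9.0% of all genes. None of the members passed an adjusted p under 0.01 in limma, the threshold of the study's methods (0 of 7, and 0.0% of all probesets). At an unadjusted p under 0.05 in limma 6 of 7 were lower, against 5.65% of all genes. Fewer cells that express a gene and less RNA per cell cannot be told apart in such mixtures. The methods give individual rats for each preparation and 3 animals, against 6 isolates, without saying whether both fractions came from the same rats. The family was chosen with earlier results of these arrays known, so its counts are a description.

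Gimap9 had the largest difference. Its RMA expression was 9.98, 9.52 and 9.84 on the log2 scale in PEC-enriched replicates 1 to 3, against 10.29, 10.51 and 10.66 in PEC-deprived replicates 1 to 3. The groups did not overlap, and the lowest PEC-deprived array lay 0.313 above the highest PEC-enriched array. The log2 fold change was -0.71 (standard error 0.147, limma adjusted p = 0.177), which is 1.64-fold higher expression in PEC-deprived isolates. It was number 18 from the lowest among the log2 fold changes of the 14506 genes.

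Gimap6, whose human protein binds a protein of the autophagy machinery, differed to a similar degree. It stood at 9.44, 8.92 and 8.99 in PEC-enriched isolates, against 9.59, 9.88 and 9.97 in PEC-deprived isolates. All PEC-enriched arrays were lower, but replicate 1 of both groups stood close together, 0.149 apart. The log2 fold change was -0.70 (standard error 0.163, limma adjusted p = 0.207).

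Gimap8, a long member with several GTP-binding domains in a row, read 9.26, 8.90 and 8.93 in PEC-enriched isolates, against 9.58, 9.61 and 9.70 in PEC-deprived isolates. Its PEC-deprived arrays agreed closely (SD 0.0658, n = 3), and no PEC-enriched array reached them. The log2 fold change of -0.60 (standard error 0.119) had the smallest limma adjusted p of the family, 0.169. The smallest over all probesets was 0.152.

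Gimap4, which modulates the death of T cells in the mouse, gave 10.40, 10.08 and 10.10 in PEC-enriched isolates, against 10.63, 10.76 and 10.74 in PEC-deprived isolates. The groups were separated by 0.227. The log2 fold change was -0.52 (standard error 0.113, limma adjusted p = 0.19).

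Gimap5, the gene of the BB rat, read 7.49, 7.30 and 7.19 in PEC-enriched isolates, against 7.77, 7.81 and 7.67 in PEC-deprived isolates. It was the only member whose lowest PEC-deprived value was in replicate 3 and not in replicate 1. Its log2 fold change was -0.42 (standard error 0.106, limma adjusted p = 0.23), and the PEC-enriched arrays all lay below the PEC-deprived ones.

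Gimap1, which mature T and B cells of the mouse need, read 8.24, 7.88 and 7.92 in PEC-enriched isolates, against 8.24, 8.45 and 8.36 in PEC-deprived isolates. It was the only member whose groups overlapped, since PEC-enriched replicate 1 and PEC-deprived replicate 1 had the same value to 2 decimals. The log2 fold change was -0.33 (standard error 0.122, limma adjusted p = 0.378).

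Gimap7, whose human protein hydrolyses GTP as a dimer, had the smallest difference. It stood at 7.38, 7.12 and 7.33 in PEC-enriched isolates, against 7.40, 7.83 and 7.50 in PEC-deprived isolates. The groups were apart by only 0.0172, and PEC-deprived replicate 2 was well above the other arrays. The log2 fold change was -0.30 (standard error 0.135, limma adjusted p = 0.507, unadjusted p = 0.0582). Without PEC-deprived replicate 2 it was -0.17, the only value of the family that a single array moved by more than 1.5 times.

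**Figure D1:**
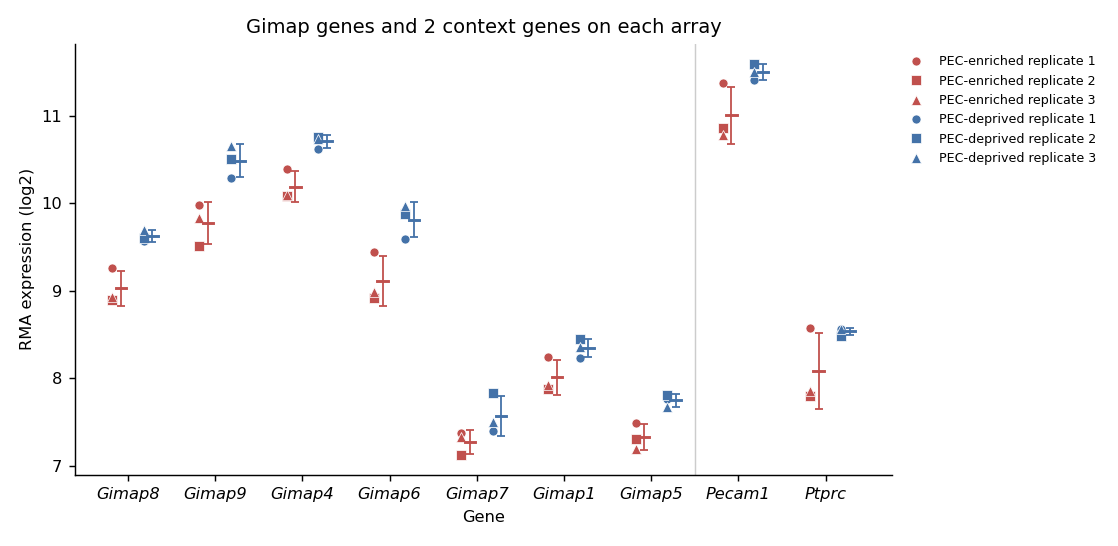
RMA expression on the log2 scale (y axis) of the 7 Gimap genes in chromosomal order and of Pecam1 and Ptprc (x axis), each point 1 array, with bars for the mean and SD of 3 arrays. In every Gimap gene except Gimap1 the 3 PEC-enriched arrays lie below the 3 PEC-deprived arrays.

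A regularised Bayesian test, which pools each group variance with that of probesets of similar level and stands in for the test of the methods, called 2 of 7 members lower, against 0.214% of all genes. These were Gimap9 (adjusted p = 0.00452 by this test) and Gimap6 (adjusted p = 0.0066). Gimap8 and Gimap4 lay just past the threshold of 0.01 at 0.0102 and 0.0125. The study itself listed Gimap8 along with Gimap6 and Gimap9, so the stand-in test did not give the same calls. The prior weight of that test decided the calls. At its prior weight of 10 it called 328 probesets, at a weight of 6 it called 30 and at a weight of 3 it called 0. At both lower weights, which were added after the data were seen, it called 0 of 7 members.

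The members varied together from array to array. Over the 6 arrays the 21 pairs of members had Pearson correlations between 0.732 and 0.991, with a median of 0.937. These points share the difference between the isolates, so the correlation was also computed after each group's mean was subtracted. It then ran from 0.158 to 0.987 with a median of 0.753, and 0 of 21 pairs were below 0. Within PEC-enriched isolates replicate 1 had the highest value of all 7 members, while replicate 2 had the lowest of 6. Within PEC-deprived isolates replicate 1 had the lowest value of 6 members. As a mean over the family relative to all arrays, PEC-enriched replicates 1 to 3 stood at -0.0463, -0.402 and -0.319, against 0.138, 0.333 and 0.297 in PEC-deprived replicates 1 to 3. The arrays of the isolates that came closest to each other were thus replicate 1 of each. Paralogous probes can share signal, and since the probe sequences were not used here this was not tested.

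The 4 members at the Gimap8 end (Gimap8, Gimap9, Gimap4 and Gimap6) had log2 fold changes between -0.71 and -0.52, and the 3 at the Gimap5 end (Gimap7, Gimap1 and Gimap5) between -0.42 and -0.30. This split was seen in the values and was not tested. It also falls on expression level. PEC-deprived means were 9.63, 10.49, 10.71 and 9.82 for the first 4 as listed, and 7.58, 8.35 and 7.75 for the other 3. Position and level therefore cannot be told apart here. Of the 10 protein-coding genes on either side of the cluster in the RefSeq gene order, 15 were measured, 9 with a lower and 6 with a higher mean. Their median log2 fold change was -0.01. The nearest measured neighbours were Zfp775, a zinc finger gene before Gimap8, with -0.13, and Tmem176b, a membrane protein gene after Gimap5, with 0.09. Tmem176b read 10.77, 10.99 and 11.17 in PEC-enriched isolates, against 11.04, 10.73 and 10.89 in PEC-deprived isolates, so its groups overlapped. At an unadjusted p under 0.05 in limma 1 neighbour was lower (Gpnmb, a glycoprotein of macrophages, -0.46, where 5.65% of all genes were lower) and 1 higher (Malsu1, a factor of mitochondrial ribosome assembly, 0.40, where 7.96% of all genes were higher), and both lie at the far end of the window. Neither passed after adjustment, since no probeset did.

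**Figure D2:**
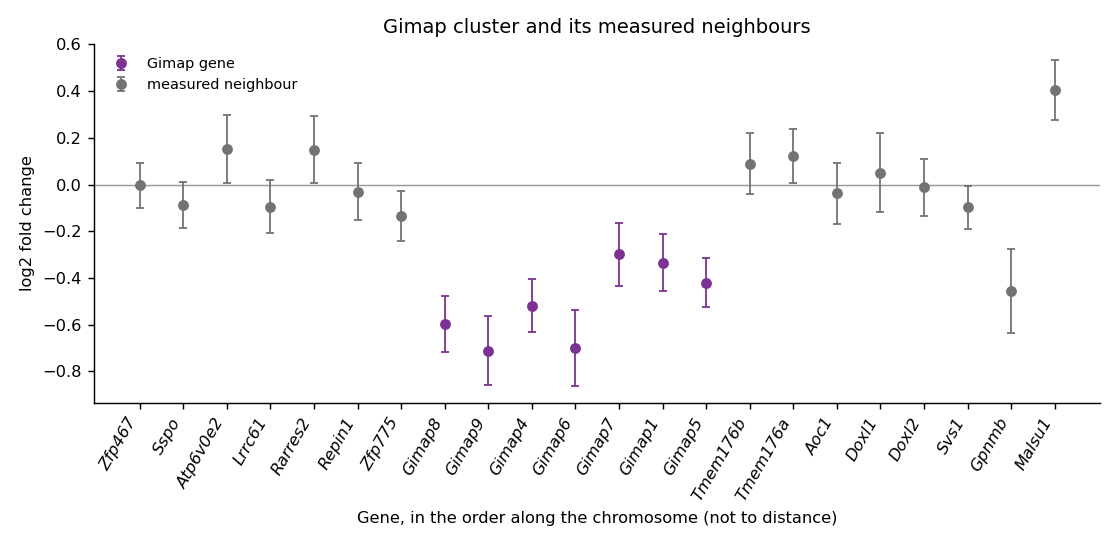
Log2 fold change of the 7 Gimap genes and the 15 measured neighbours (y axis, PEC-enriched minus PEC-deprived, bars for the limma standard error), in the order of the genes along the chromosome (x axis, not to distance). The Gimap genes lie between -0.71 and -0.30, and the neighbours other than Gpnmb (-0.46) and Malsu1 (0.40) lie between -0.13 and 0.15.

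Pecam1, an adhesion molecule of endothelial junctions, and Ptprc, the CD45 antigen of all leukocytes, were set beside the family. Pecam1 read 11.38, 10.86 and 10.78 in PEC-enriched isolates, against 11.41, 11.60 and 11.50 in PEC-deprived isolates. The groups were 0.0314 apart, again between replicate 1 of each. Its log2 fold change was -0.50 (standard error 0.16, limma adjusted p = 0.328). Ptprc read 8.58, 7.80 and 7.86 in PEC-enriched isolates, against 8.56, 8.49 and 8.56 in PEC-deprived isolates. Here PEC-enriched replicate 1 was above every PEC-deprived array. Its log2 fold change was -0.46 (standard error 0.195, limma adjusted p = 0.464), and without PEC-enriched replicate 1 it was -0.71.

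For each member the difference between the isolates was also taken relative to Pecam1 and to Ptprc on the same array, 14 comparisons in all. Relative to Pecam1, 4 of 7 members were lower and 3 higher in PEC-enriched isolates, from -0.21 for Gimap9 to 0.20 for Gimap7. The groups did not overlap in 1 comparison, that of Gimap1, which was higher by 0.16 (standard error 0.0828, two-sided exact permutation p = 0.1). This p is the lowest that the test can reach with 3 arrays in each group. Without PEC-enriched replicate 3 the difference of Gimap1 was 0.0947. Relative to Ptprc, 4 of 7 were lower and 3 higher, from -0.25 for Gimap9 to 0.16 for Gimap7, and the groups overlapped in each. Single arrays moved each of the 14 differences by more than 1.5 times. Without single arrays Gimap9 ran from -0.357 (without PEC-enriched replicate 3) to -0.125 (without PEC-deprived replicate 3) relative to Pecam1, and from -0.394 (without PEC-enriched replicate 3) to -0.105 (without PEC-enriched replicate 1) relative to Ptprc. Gimap7 ran from 0.0595 to 0.337 relative to Pecam1 and from 0.0221 to 0.358 relative to Ptprc, in both cases lowest without PEC-enriched replicate 3 and highest without PEC-enriched replicate 1. With Benjamini-Hochberg adjustment over the 14 exact permutation tests the smallest p was 0.7. With this number of arrays the test could not have passed 0.05, so it does not show that the family and either gene differ to the same degree. Single genes were then replaced by the mean of the other markers of their cell type list, a comparison added after the data were seen. Relative to the endothelial markers Gimap6 (-0.27) and Gimap8 (-0.16) lay lower on each PEC-enriched array than on any PEC-deprived array, and relative to the pan-leukocyte markers Gimap9 (-0.35), Gimap6 (-0.34) and Gimap8 (-0.24) did. Gimap1, at 0.098 relative to the endothelial markers, had groups that overlapped (exact permutation p = 0.3). Each of the 5 differences without overlap had an exact permutation p of 0.1, and the smallest after adjustment was 0.28. The share of all genes without overlap after the same subtractions was not computed. These differences therefore do not show that a member differed more than its context.

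**Figure D3:**
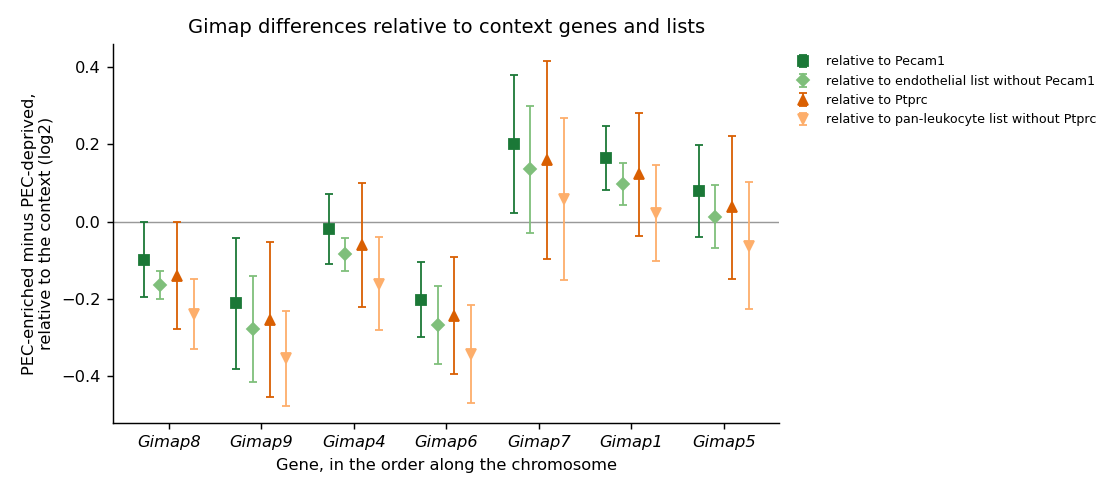
Difference between PEC-enriched and PEC-deprived isolates for each Gimap gene after subtraction, on each array, of Pecam1, Ptprc or the mean of the other markers of the endothelial or pan-leukocyte list (y axis, log2, bars for the standard error over arrays), in chromosomal order (x axis). The differences lie on both sides of 0, between -0.35 and 0.20.

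Marker lists of the cell types that an isolate could hold were read on the same arrays. Of 30 endothelial markers 27 were measured and all 27 had a lower mean in PEC-enriched isolates, with a median log2 fold change of -0.43, and 20 were lower at an unadjusted p under 0.05, against 5.65% of all genes. Cdh5, the cadherin of endothelial junctions, read 9.66, 9.19 and 9.09 in PEC-enriched isolates, against 9.63, 9.81 and 9.92 in PEC-deprived isolates, a log2 fold change of -0.48. All 15 pan-leukocyte markers also averaged lower (median -0.42), and 7 were lower at an unadjusted p under 0.05, against the same 5.65%. Cd53, a leukocyte tetraspanin, had a log2 fold change of -0.42 with overlapping groups. For the endothelial list the mean relative to all arrays was between -0.373 and 0.061 on PEC-enriched arrays, against 0.172 to 0.245 on PEC-deprived arrays. For the pan-leukocyte list it was between -0.478 and 0.169 on PEC-enriched arrays, against 0.0956 to 0.264 on PEC-deprived arrays. The part of either cell type in the Gimap differences was not tested.

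Lists of single leukocyte types had smaller medians. Most T cell, B cell, natural killer cell and neutrophil markers read below the array medians of 6.69 to 6.75. Whether weak signal made their differences smaller was not tested. Of 19 measured T cell markers 15 averaged lower (median -0.15), and 3 were lower at an unadjusted p under 0.05, against 5.65% of all genes. The lowest log2 fold changes of that list were those of Cd4 (-0.51) and Thy1 (-0.46), both with overlapping groups. Thy1 averaged 10.51 in PEC-enriched isolates, far above every other marker of the list. The part of other cell types in the values of this list was not tested. Cd3e, a chain of the T cell receptor complex, read 5.93, 5.78 and 6.02 in PEC-enriched isolates, against 5.97, 5.96 and 6.07 in PEC-deprived isolates, and its groups overlapped. Cd3d, another chain, had a log2 fold change of 0.13, with overlapping groups. Of 7 measured B cell markers 6 had a lower mean (median -0.21). Among them Ms4a1, the CD20 antigen, read 5.15, 5.04 and 5.20 in PEC-enriched isolates, against 5.59, 5.53 and 5.65 in PEC-deprived isolates, with no overlap and a log2 fold change of -0.46. Cd79b, a chain of the B cell receptor, had -0.22 with overlapping groups. All 9 measured natural killer cell markers had a lower mean (median -0.19), with -0.11 for Klrd1 and -0.48 for Nkg7. All 14 macrophage markers had a lower mean (median -0.34), with -0.44 for Cd68 and -0.35 for Csf1r, and both overlapped. Of 8 neutrophil markers 7 averaged lower (median -0.09), as did 1 of 4 measured red cell genes (median 0.14).

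Epithelial lists lay on the other side. The 11 parietal epithelial markers all averaged higher in PEC-enriched isolates (median 0.92, 8 with groups that did not overlap, against 9.68% of all genes), as did the 11 measured proximal tubule genes (median 1.02) and the 9 measured genes of the thick ascending limb (median 1.45). The study had reported Cldn1, Pax2, Pax8, Lad1, Cdh6, Krt8, Aldh1a2 and Cdh16 as higher in these same arrays. The count of the parietal list is therefore a description. The study also found CDH6 and PAX8 protein in tubules, so these genes are not specific to PECs. Within the parietal list the log2 fold changes ran from 0.05 for Wt1, which the podocyte list shares, to 2.01 for Cdh16. The part of tubule RNA in the values of the parietal list was not tested. The claudin Cldn1 of the capsule had a log2 fold change of 1.38 and the phosphate transporter Slc34a1 of the proximal tubule one of 1.00. Of 9 measured podocyte genes, 4 had a lower and 5 a higher mean, with a median of 0.03, and the nephrin gene Nphs1 had 0.06. Of 8 measured mesangial genes 6 averaged lower (median -0.19), with -0.39 for the receptor Pdgfrb. Umod, the uromodulin of the thick ascending limb, had 2.88. On PEC-enriched arrays the proximal tubule list stood at 0.332, 0.953 and 0.177 relative to all arrays, against 0.123, -1.09 and -0.499 on PEC-deprived arrays. The array with the lowest Gimap mean had the highest proximal tubule mean in both groups, which was replicate 2 of the PEC-enriched isolates and replicate 1 of the PEC-deprived isolates. PEC-enriched replicate 1, with the highest Gimap mean of its group, had a higher proximal tubule mean than replicate 3 (0.332 against 0.177) and the highest thick ascending limb mean of all arrays (1.14). The part of tubule RNA in the Gimap differences was not tested.

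**Figure D4:**
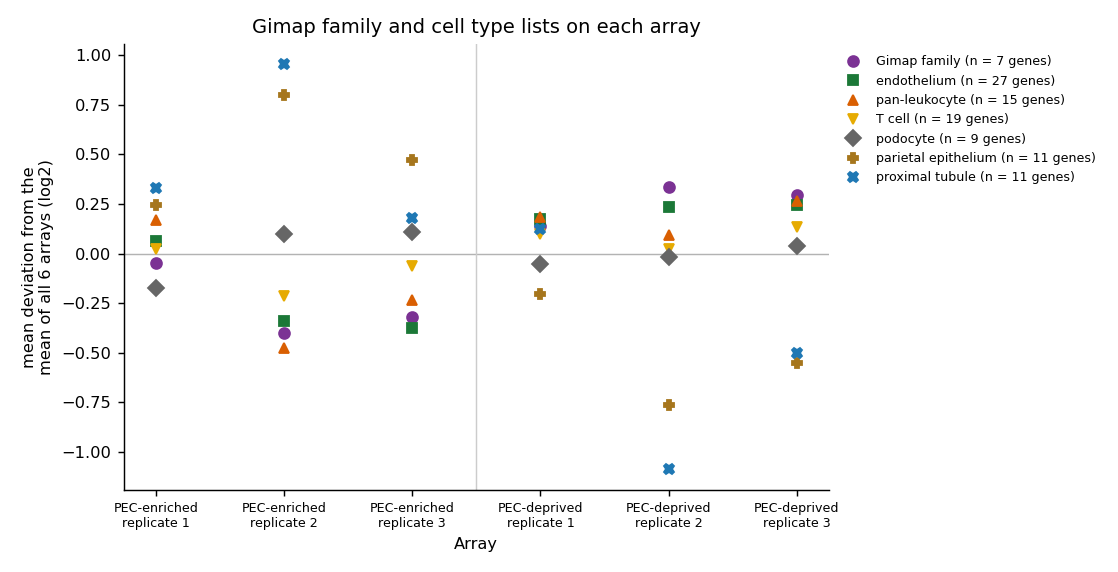
Mean deviation of the Gimap family and of 6 marker lists from the mean of all 6 arrays (y axis, log2), 1 point per list and array (x axis). The Gimap points lie between -0.402 and -0.0463 on PEC-enriched arrays and between 0.138 and 0.333 on PEC-deprived arrays, while the parietal epithelial and proximal tubule points are higher on the PEC-enriched arrays, by least between PEC-enriched replicate 3 (0.177) and PEC-deprived replicate 1 (0.123) of the tubule list.

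Other genes of the pathways in which Gimap proteins act were measured. Of 11 members of the Bcl-2 family, regulators of apoptosis some of which bind Gimap proteins in mouse T cells, 10 averaged lower (median -0.07), against 55.2% of all genes. In limma 0 of 11 had an unadjusted p under 0.05, where 5.65% of all genes were lower and 7.96% higher. With so few genes this count does not set the family apart from all genes. The largest differences were -0.25 for the pro-apoptotic Bcl2l11, -0.22 for Bcl2 itself and 0.21 for Bid, with overlapping groups in each. Of 11 genes of lymphocyte survival and traffic, 9 had a lower mean (median -0.31) and 5 were lower at an unadjusted p under 0.05, against 5.65% of all genes. S1pr1, the sphingosine phosphate receptor of lymphocytes and also of endothelium, read between 9.98 and 10.32 in PEC-enriched isolates, against 10.67 to 10.82 in PEC-deprived isolates. Its groups did not overlap, and its log2 fold change of -0.65 was the lowest of that list. Il2rg, a shared cytokine receptor chain, had -0.50 with overlapping groups, and Klf2, a factor of quiescent T cells and of endothelium, had -0.44 with no overlap. Other GTPases of immunity, which interferon induces, were also measured. All 8 that were measured averaged lower (median -0.42), and 6 were lower at an unadjusted p under 0.05, against the same 5.65%. Gbp5, a guanylate-binding protein, read 8.18, 8.14 and 8.10 in PEC-enriched isolates, against 8.63, 8.48 and 8.93 in PEC-deprived isolates, with no overlap and a log2 fold change of -0.54. Mx2 and Mx1, antiviral GTPases, had -0.53 and -0.45 with overlapping groups. On these arrays the interferon GTPases differed from the Gimap genes in their order. PEC-deprived replicate 2, where the Gimap family was highest, was the lowest array of its group for them, at -0.056 relative to all arrays, against 0.333 for the Gimap family. It was also the lowest of its group for the pan-leukocyte (0.0956), macrophage (0.0715), T cell (0.0211), B cell (0.0294) and natural killer cell (0.117) lists. For the endothelial (0.236) and neutrophil (-0.0472) lists it was not the lowest.

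The genes most like the family in their profile were found by Pearson correlation with the mean of the 7 centred profiles over the 6 arrays. Of 14499 other genes 511 had a correlation above 0.9 and 187 above 0.95, so a high value is common with so few arrays. The first was Tlr4, the receptor for lipopolysaccharide (0.997). It was followed by Wasf2 (0.996), a regulator of actin, Erg (0.994), an ETS transcription factor of endothelium, Ncoa5 (0.994), Pitpnm2 (0.993) and Cyth3 (0.992). Sh3gl3 (0.991), Gata2 (0.99), a factor of blood and endothelial cells, Bmpr2 (0.99), a receptor for bone morphogenetic proteins, and Abhd2 (0.988) completed the first 10. Erg read 9.70, 9.25 and 9.26 in PEC-enriched isolates, against 10.09, 10.39 and 10.37 in PEC-deprived isolates. Its groups were well apart, and its log2 fold change was -0.88 (standard error 0.148, limma adjusted p = 0.159). Pecam1 was number 173 in this order (0.953) and Ptprc number 730 (0.871). Above 0.9 were 15 of the 27 endothelial markers, 4 of the 15 pan-leukocyte markers, 3 of the 9 natural killer cell markers, 1 of the 19 T cell markers, 1 of the 7 B cell markers and 0 of the 14 macrophage markers, as well as 4 of the 11 genes of lymphocyte survival and traffic. Most T cell, B cell and natural killer cell markers read below the array medians, and the bearing of this on their correlations was not tested. These correlations are over arrays that share the difference between the isolates, and they are a description.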

How the data were processed

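The authors deposited a log2 RMA value for each probeset on each array, made from Affymetrix intensities by background adjustment, quantile normalization and RMA summary. The submitters' processing notes also name RMA. Its version is not given in the sources used here, and the logarithm's base was settled from the values, since a highest value of 13.87 would exceed the range of a scanner for the natural logarithm (1054400 in linear units) and not for base 2 (14957). Array medians ran from 6.69 to 6.75 and correlations between arrays from 0.982 to 0.994. Signal over background is unknown, since no detection calls were used, and the number of arrays limits the precision.

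Genes were named from the 2016 platform annotation and its Entrez IDs (15279 of 15310 probesets with 1 symbol matched RefSeq, GRCr8). A gene was its probeset with the highest mean. The isolates were compared with limma 3.58.1 under R 4.3.3 (unpaired lmFit, then eBayes, two-sided) over all probesets with Benjamini-Hochberg adjustment, at the 0.01 of the methods. The regularised Bayesian test used a window of 101 probesets and a prior weight of 10. Both were tested on simulated data with independent noise and planted effects larger than any Gimap difference. This does not show how they perform for differences of the size seen in the family. The members and lists were chosen with earlier results of these data known. Named genes were all members, Pecam1 and Ptprc, the first 2 measured genes of each cell type list, the 3 largest differences of each pathway list, the cluster's neighbours and the 10 genes most like the family. Proteins were to be compared, but their sequences were not used here. Alternatives were the regularised test, an intensity trend, array weights, cyclic loess, median centring, only probesets above the median level or with 1 symbol, the mean of a gene's probesets, an adjusted p under 0.05, the replicate number as a block and each array left out. Marker list means as context and prior weights of 6 and 3 were added after the data were seen. Figures were drawn with matplotlib 3.10.9.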

Additional observations from a re-analysis of the deposited data

How the results depend on the processing

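All 7 Gimap genes, Pecam1 and Ptprc kept a lower mean in PEC-enriched isolates under each of 17 alternatives to the limma test and its input, and none of them passed an adjusted p under 0.01 in limma. With all 6 arrays limma called 0 probesets under each alternative for which probesets were counted, and 0 members with the mean of a gene's probesets. The regularised Bayesian test called 328 probesets and 2 members at its prior weight of 10, and at a weight of 6, added after the data were seen, it called 30 probesets and 0 members. Without single arrays the family's median ran from -0.62 to -0.46, the members with an unadjusted p under 0.05 from 5 to 7 and the probesets called from 0 to 1, the 1 being called without PEC-deprived replicate 1.

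Same-numbered arrays did not deviate together (correlations of -0.0287, 0.0519 and 0.1), and not every array correlated best with its own number, so the numbers were not taken as pairs. With so few arrays in each group this check cannot settle whether both fractions came from the same rats. With the replicate number as a block limma called 0 probesets, and 6 members had an unadjusted p under 0.05, as without it.

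Relative to Pecam1 and Ptprc, directions turned in 6 cases, under 5 alternatives. Without single arrays Gimap4 relative to Pecam1 ran from -0.086 to 0.065, Gimap4 relative to Ptprc from -0.15 to 0.086 and Gimap5 relative to Ptprc from -0.0895 to 0.21. The first 2 were above 0 without PEC-enriched replicate 1. The last was below 0 without PEC-enriched replicate 2 (-0.0895), PEC-enriched replicate 3 (-0.0047) or PEC-deprived replicate 3 (-0.015). Gimap5 was also below 0, at -0.063, relative to the other pan-leukocyte markers, added after the data were seen. The cause was not tested.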
